A study of Mus musculus with 4 samples.

Results

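In chromatin from fetal mouse kidneys, 695 of 4360 reproducible WT1 regions on chromosomes 1 to 19 (15.9%, exact 95% interval 14.9 to 17.1) lay far from any protein-coding gene. A region counted as far when its midpoint was outside every protein-coding RefSeq gene and more than 50 kb from the nearest end of one. Reproducible means an irreproducible discovery rate (IDR) of 0.05 or lower in the deposited table of 17234 regions found in both WT1 replicates. The IDR is the expected share of regions, down to a given rank, whose order the replicates do not share, and it is computed from the significance values of both. The regions were thus chosen by these values and by distance, so their strength is described below and supports nothing. The study used chromatin immunoprecipitation followed by sequencing on kidneys dissected from embryos at embryonic stage E18.5. The embryos were wildtype, from a mixed background of C57Bl6 and B6DBA/F1. In 2 samples the antibody was WT1 (C-19), and 2 further samples with IgG were the negative control and were not analysed here. Whole kidneys were used, so the regions of all cell types that contain WT1 are pooled, and fewer cells of a type and a weaker signal per cell cannot be told apart. The 2 WT1 samples come from experiments described as independent, and no label says how many animals each pooled. The peak lists hold 53132 and 57641 peaks, with no read counts or heights, so the depth behind each region is unknown.

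WT1 binds DNA through zinc fingers and is needed for the kidney to form at all. It acts first in the nephron progenitors of the cap mesenchyme and later in podocytes, the cells that carry the filter of the glomerulus. Long stretches without protein-coding genes, called gene deserts, often lie beside genes for developmental regulators and can hold enhancers that act over long distances. A position in a desert does not name the gene a region acts on, so the flanking genes on both sides are given here, the one at lower coordinates first.

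No genome sequence was used. RefSeq start-site windows (250 bases before to 50 after a start, assembly GRCm38.p6) covered part of 14 of the 695 regions, at starts of non-coding genes inside the deserts. The covered parts of the 6 regions with the lowest IDR are shown, as the strongest far regions with known letters. They are printed on the plus strand, with capitals marking GTGGGNG, the G-rich core of WT1 and EGR sites, on either strand.
1700011C11Rik, chr7:71960925-71961224: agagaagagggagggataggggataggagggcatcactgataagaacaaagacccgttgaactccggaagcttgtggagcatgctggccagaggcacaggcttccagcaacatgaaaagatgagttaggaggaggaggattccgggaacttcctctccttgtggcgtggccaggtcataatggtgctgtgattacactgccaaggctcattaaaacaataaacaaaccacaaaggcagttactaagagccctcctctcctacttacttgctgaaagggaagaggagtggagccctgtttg
4833411C07Rik, chr8:10899672-10899861: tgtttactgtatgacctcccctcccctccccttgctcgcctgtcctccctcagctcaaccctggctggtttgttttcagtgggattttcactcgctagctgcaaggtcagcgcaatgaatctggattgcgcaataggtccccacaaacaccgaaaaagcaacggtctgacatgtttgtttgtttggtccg
Gm30604, chr5:118381129-118381168: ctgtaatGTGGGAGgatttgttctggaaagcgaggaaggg
Gm34418, chr11:117483171-117483302: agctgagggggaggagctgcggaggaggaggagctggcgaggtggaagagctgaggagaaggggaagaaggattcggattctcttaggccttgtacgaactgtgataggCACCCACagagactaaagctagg
4632428C04Rik, chr16:30008609-30008716: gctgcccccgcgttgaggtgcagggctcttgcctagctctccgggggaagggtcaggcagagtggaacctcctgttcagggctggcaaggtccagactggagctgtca
Gm10637, chr8:87199801-87200100: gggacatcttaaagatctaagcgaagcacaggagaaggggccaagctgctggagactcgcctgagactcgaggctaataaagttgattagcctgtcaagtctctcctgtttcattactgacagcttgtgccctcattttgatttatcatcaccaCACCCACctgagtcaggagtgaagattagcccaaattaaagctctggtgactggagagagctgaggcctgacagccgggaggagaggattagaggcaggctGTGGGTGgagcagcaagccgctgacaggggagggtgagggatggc

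Of these 6 covered parts, that at Gm10637, between N4bp1 and Cbln1, held 2 copies of the motif. Those at Gm30604, between Spring1 and Med13l, and at Gm34418, between Septin9 and Tnrc6c, held 1 each. The parts at 1700011C11Rik, between Gm44812 and Mctp2, at 4833411C07Rik, between Myo16 and Irs2, and at 4632428C04Rik, between Opa1 and Hes1, held none, which says only that these letters are not in the part covered. Over all 14 regions 8 held it, with 10 copies in 2856 bases. Whole windows that touched a far region held it in 11 of 16 cases (68.8%). The share was 53.5% of 613 windows touching any reproducible region and 31.7% of all 31363 windows of the same 300 bases. A longer WT1 site that contains this core was in 0 of the 16, 6 of the 613 and 16 of the 31363. With 16 windows a site this rare cannot be compared. The 16 windows touched 14 regions, so they are not all independent. They stand at non-coding starts, while the 31363 take in starts of all RefSeq genes. No interval was computed, so these shares only describe. A match describes letters and does not show a bound site.

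The far regions were sparse for the room they had. Far sequence made up 839 of 2399 Mb between the outermost peaks of the chromosomes (35.0%). It held 0.829 reproducible regions per Mb, against 2.35 per Mb elsewhere, a ratio of 0.353. All peaks of replicate 1 stood at 16.6 and 24.4 per Mb in the same territories, a ratio of 0.679, and those of replicate 2 at 13.4 and 29.2, a ratio of 0.458. The share of peaks that lay far was thus 26.7% in replicate 1 and 19.8% in replicate 2, and it was 21.2% among overlap regions above the IDR threshold. Reproducible regions had the lowest far share of these sets.

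Regions far from genes passed the IDR threshold less often than the rest. Of all overlap regions on chromosomes 1 to 19, 25.7% passed. Far from genes 20.6% of 3377 did (19.2 to 22.0), and elsewhere 26.9% of 13621 did (26.2 to 27.7). Counts this large make the intervals narrow, but regions are not replicates, and the intervals cover counting error only. The share fell with distance within deserts: it was 25.1% (22.5 to 27.8) at 50 to 100 kb from a gene end, 21.7% (19.2 to 24.3) at 100 to 200 kb and 15.8% (13.8 to 17.9) beyond 200 kb. Outside genes but nearer to them it was 24.5% at 10 to 50 kb and 25.2% at 1 to 10 kb. The highest share, 34.6%, belonged to regions within 1 kb of a gene end.

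The share of peaks that overlapped a peak of the other replicate was counted in each list. Each overlap counts in both lists, so these shares also depend on how many peaks a list holds. Of the 13918 far peaks of replicate 1, 25.1% overlapped a peak of replicate 2, against 37.7% of its 38123 peaks elsewhere. For replicate 2 the shares were 30.7% of 11233 far peaks and 30.8% of 45593 elsewhere. With growing distance the share for replicate 1 went from 30.5% at 50 to 100 kb to 28.1% and then 20.1% beyond 200 kb. That for replicate 2 was 29.6%, 31.5% and 31.2%. Replicate 1 had 6349 peaks beyond 200 kb and replicate 2 had 4077.

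**Figure D1:**
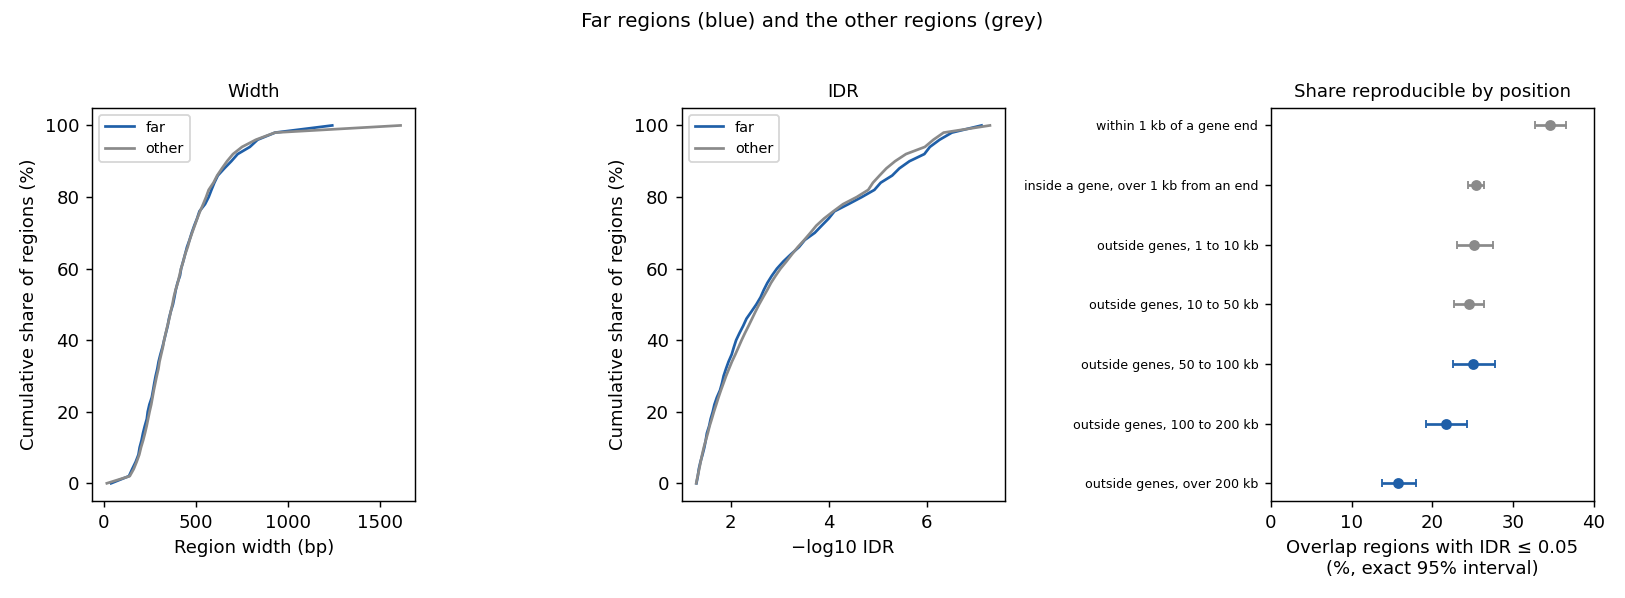
Cumulative share of regions (%) by width (bp, left) and by −log10 IDR (middle), for 695 far and 3665 other reproducible regions, and the share of overlap regions with IDR at most 0.05 by position class (%, right; bars are exact 95% intervals). The width and IDR curves of the groups run together, while the share that passed is lowest, at 15.8%, beyond 200 kb from a gene end.

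Where they did pass, far regions were neither wider nor narrower. Their median width was 375 bp (quartiles 262.5 and 512.5, range 39 to 1240), and that of the 3665 other reproducible regions was 372 bp (267 and 514, range 16 to 1611). The far median was the wider on 10 chromosomes and the narrower on 9. Peaks of replicate 1 in far regions had a median width of 288 bp, against 279 bp in the others. For replicate 2 the medians were 340 and 341 bp. The widths of far and other regions overlapped over almost their whole range, and the difference between the medians changed sign between chromosomes.

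Width went with strength. When the far regions were ordered by IDR and split into 4 parts of 173 or 174, the median width was 524.5 bp in the part with the lowest IDR, then 421.5, 327 and 259.5 bp. Spearman's rho between width and IDR was -0.562 over 695 regions, a description across regions whose values come from the same 2 samples. Distance to a gene had rho of 0.0175 with IDR and -0.0420 with width. Per the labels' protocols DNA was cut with MseI and either AluI or HaeIII before sequencing. Where the start-site windows show the letters at a peak edge, 22.6% of 1720 edges in replicate 1 and 16.5% of 2919 in replicate 2 lay exactly at a cut AluI site, AGCT, against 0.233% and 0.0685% at a point 10 bp further inside. MseI sites, TTAA, stood at 6.05% and 5.52% of the edges, against 0% at the inner point in both replicates. HaeIII sites, GGCC, stood at 0.465% and 1.13% of the edges, against 0.814% and 0.685% at the inner point. The HaeIII share at edges was thus the lower in replicate 1 and the higher in replicate 2. Over edges of all reproducible regions the AluI share was 8.94% of 425. Of 10 far-region edges with letters 2 lay at an AluI site, too few to give a share. Both are starts, and the 10 bases on either side are shown with the cut site in capitals.
Between Spring1 and Med13l, chr5:118381119-118381138: gcggggcgAGCTgtaatgtg
Between Arpp21 and Pdcd6ip, chr9:113295902-113295921: cattcaagAGCTcattagat

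Edges of the replicates often fell on the same base. Of 591 far regions made of 1 peak from each replicate, 37.2% had the same start base in both and 34.9% the same end base. Among the other reproducible regions these shares were 32.9% and 34.1%. The part of the cut sites in the widths was not tested.

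Far and other regions differed little in median strength, and the direction differed between the replicates. The median IDR was 0.00298 far and 0.00261 for the others. The median significance value, a p-value or q-value of the authors for each peak, was 4.32e-07 far and 8.75e-07 for the others in replicate 1, so far regions were slightly stronger there. In replicate 2 it was 7.18e-12 and 1.15e-12, so they were slightly weaker. By chromosome, far regions had the stronger median in replicate 1 on 11 of 19 and the weaker one in replicate 2 on 13 of 19. Neither direction held on every chromosome. When non-coding RefSeq genes also counted in the distance, far regions were weaker in both replicates, with differences of -0.43 and -2.61 in the median −log10 value.

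Replicate 2 gave the smaller value in 612 far regions (88.1%) and in 90.7% of the others. Spearman's rho between the replicates' values was 0.746 over the 695 far regions and 0.714 over the others, a description in a set chosen for such likeness. A value of 0 was listed for 3 far regions in replicate 1 and for 11 in replicate 2, those 3 included. Of the 10, 100 and 1000 reproducible regions with the lowest IDR, 2, 25 and 163 were far from genes (20.0%, 25% and 16.3%), beside 15.9% of all.

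**Figure D2:**
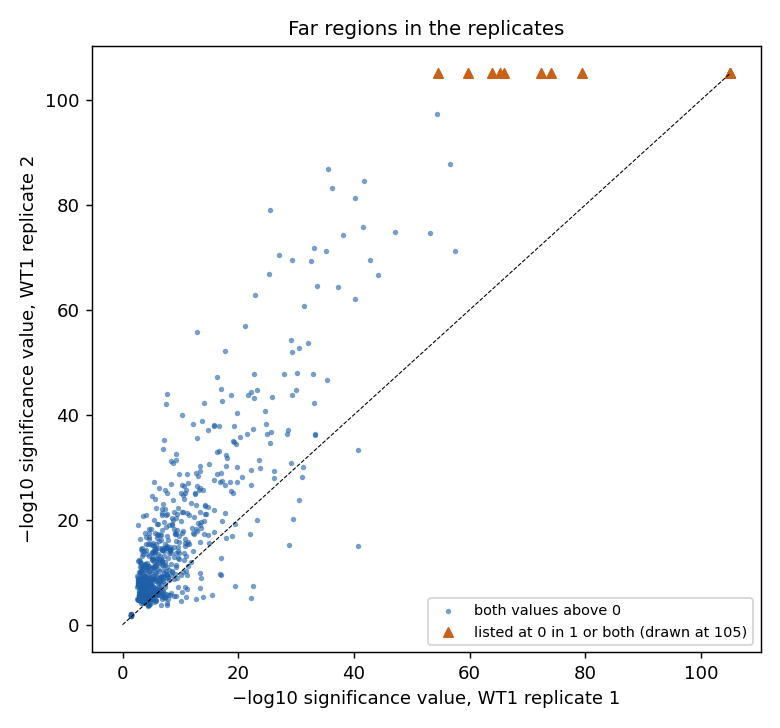
The −log10 significance value of each of the 695 far regions in WT1 replicate 1 (x axis) and replicate 2 (y axis), with the line of equality dashed. Most points, 612, lie above the line, and the 11 regions with a value listed at 0 in at least 1 replicate are drawn as triangles at a fixed height.

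The far regions with the lowest IDR lay beside genes of unlike function. First was a region of 1011 bp on chromosome 12, 15698502 to 15699512, between Lratd1 and Trib2, which encodes a pseudokinase. Its IDR was 7.69e-08, the fourth lowest of all 4360, its value was 0 in both replicates, and it lay 92.7 kb from Trib2 inside the long non-coding gene Gm40287. Next came the widest far region, 1240 bp on chromosome 9, 49921692 to 49922931, at 123 kb from Ncam1, the neural cell adhesion molecule, with Plet1 on the other side (IDR 1.16e-07, both values 0). The last with 0 in both replicates lay between Foxl1 and 1700018B08Rik on chromosome 8, 121258192 to 121258983, and was 792 bp wide (IDR 1.22e-07).

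A region between Gm7361 and Dpp6, an accessory subunit of potassium channels, stood out by its width of only 146 bp (chromosome 5, 26513854 to 26513999, IDR 1.26e-07). Its significance values were 1.14e-66 in replicate 1 and 0 in replicate 2, and its peaks were 142 and 146 bp wide, while the other 9 of these 10 regions ranged from 590 to 1240 bp. The region between Nphp4, a nephrocystin of the cilium base, and Ajap1 was 1165 bp wide with values of 5.42e-66 and 0 (chromosome 4, 153206928 to 153208092). That between Enc1, an actin-binding kelch protein, and Arhgef28 was 817 bp wide with values of 9e-75 and 0 (chromosome 13, 97310947 to 97311763). That between Rps24, a ribosomal protein, and Zmiz1, a transcriptional coactivator, was 979 bp wide with values of 4.15e-73 and 0 (chromosome 14, 24822825 to 24823803).

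The remaining 3 of the 10 were flanked by Ubl3 and Katnal1 (chromosome 5, 148788618 to 148789747, 1.25e-64 and 0), by Cenpw and Trmt11 (chromosome 10, 30327708 to 30328297, 2.34e-60 and 0) and by Lrpap1 and Adra2c, an adrenergic receptor (chromosome 5, 35221058 to 35221878, 5.11e-55 and 5.65e-98). Among all 10, the nearest gene end was between 57.1 kb (Adra2c) and 326 kb (Rps24) away.

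At the thresholds the values ran on without a gap. The last region inside the IDR threshold was at 0.0496, between Cnot2 and Myrfl on chromosome 10, and the first outside it was at 0.0501, between Bub3 and Gpr26 on chromosome 7. The far region nearest to a gene lay 50.1 kb from Cdkn2aip, with Cldn24 on its other side, and the nearest one left out lay 49.9 kb from Ier5, with Cacna1e on its other side.

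Far regions lay at a median of 124 kb from the nearest gene end (quartiles 76.8 and 223 kb). Beyond 100 kb lay 425 (61.2%), beyond 200 kb 197 (28.3%) and beyond 500 kb 33 (4.75%). The most distant was 1088 kb from Nxph1, a neurexophilin gene, with Ndufa4 on the other side (chromosome 6, 10337907 to 10337945). It was the narrowest far region, at 39 bp, and its IDR of 0.0295 was high for the set. The next lay 962 kb from Luzp2, with 1700015G11Rik on the other side (chromosome 7, 53872910 to 53873152, 243 bp, IDR 0.00175), and 950 kb from Trim52, with Slitrk1 on the other side (chromosome 14, 107085370 to 107085783, 414 bp, IDR 7.59e-05). Slitrk1 encodes a synaptic adhesion protein.

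Across chromosomes the density of far regions ranged from 0.566 per Mb of far sequence on chromosome 3 to 1.24 per Mb on chromosome 8. On chromosome 13 26.8% of the reproducible regions were far, and on chromosome 19 8.09%.

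Non-coding genes lay under many of these regions. Of the 695, 187 (26.9%) had their midpoint inside a RefSeq gene that is not protein-coding, in 180 cases a long non-coding RNA gene. This was so for 21.5% of the far overlap regions above the IDR threshold and for 13.9% of far sequence. Of the other 7, 3 lay inside Igk, the immunoglobulin kappa locus, and 1 inside Tcra, the T cell receptor alpha locus, whose gene segments the RefSeq table does not class as protein-coding. Only 161 far regions were also more than 50 kb from every RefSeq gene of any type.

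Deserts were defined as stretches of more than 100 kb between neighbouring protein-coding genes, the shortest that can hold a far region. There were 2495, and 416 of them (16.7%) held at least 1 far region. A single one was found in 273, at least 2 in 143, at least 3 in 62 and at least 5 in 18. The 143 deserts with several held 422 of the 695 regions (60.7%), and the 18 held 116. Deserts with a far region had a median length of 401 kb and those without 204 kb.

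Length alone did not order the deserts. A far region was found in 6.99% of 1102 deserts of 100 to 200 kb, in 19.7% of 656 of 200 to 400 kb, in 30.2% of 391 of 400 to 800 kb, in 28.3% of 230 of 800 to 1600 kb and in 23.3% of the 116 longer than 1600 kb. Per Mb of far sequence the counts were 2.33, 1.45, 1.24, 0.626 and 0.166, falling at each step. In deserts of up to 200 kb all far sequence lies within 100 kb of a gene, and longer deserts reach farther. Length and distance to a gene are thus tied, and the part of each in this fall was not tested. Of the 10 longest deserts, 9 held none. The longest, 4542 kb between Pcdh20 and Pcdh9 on chromosome 14, had 50 peaks of replicate 1, 26 of replicate 2 and 12 overlap regions in its far sequence, none of which passed the threshold. The exception was the desert of 3697 kb between Zeb2 and Acvr2a on chromosome 2, with 2.

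**Figure D3:**
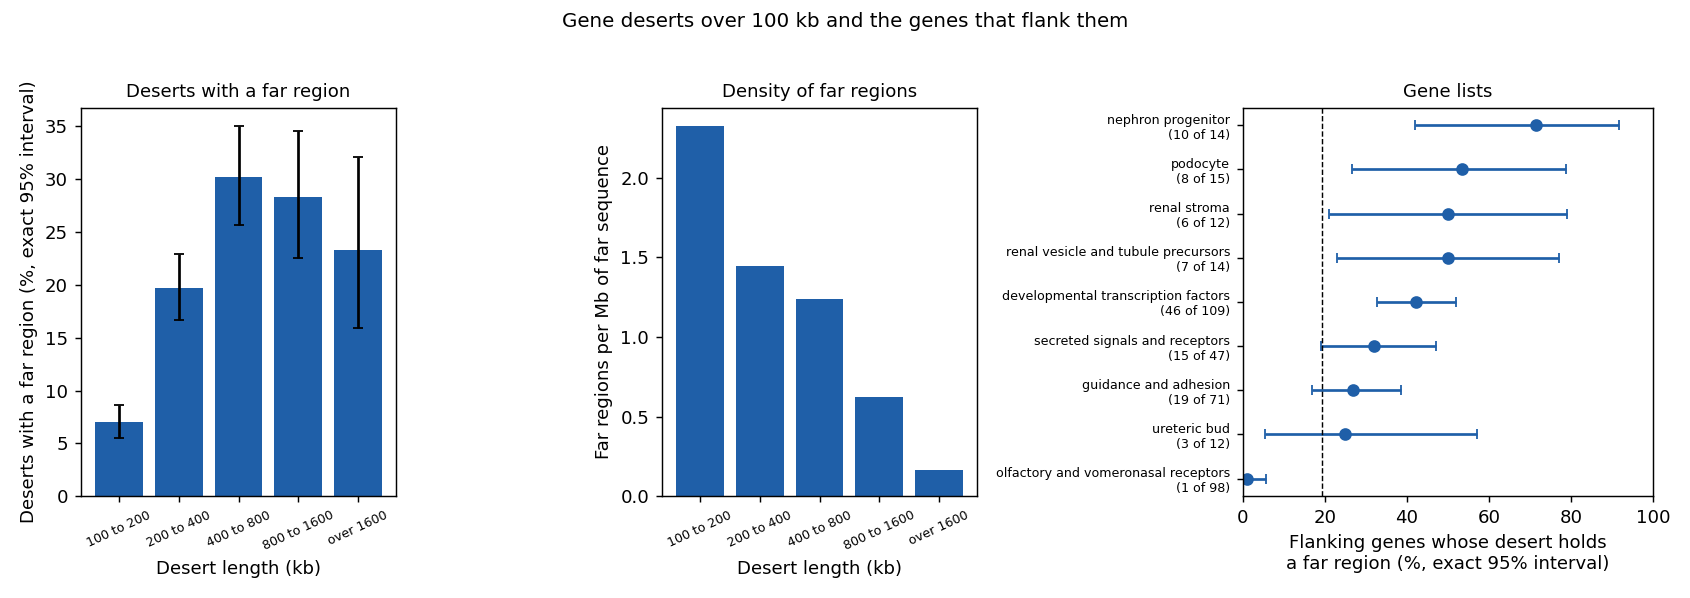
Share of deserts that held a far region by desert length (%, left), far regions per Mb of far sequence by desert length (middle), and the share of flanking genes of each gene list whose desert held a far region (%, right; dashed line at 19.3%, the share of all flanking genes). Bars on the shares are exact 95% intervals. The density falls from 2.33 to 0.166 per Mb, and the nephron progenitor list has the highest share, 71.4% of 14 genes. The lists were chosen with earlier results of these data known.

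The fullest desert, with 12 far regions, was near the median length of deserts that held any: 400 kb on chromosome 8 from Foxl1 to the uncharacterised gene 1700018B08Rik. Its far sequence held 40 regions per Mb, and they spread over 217 kb. Foxl1 is a forkhead transcription factor gene, and behind it, at 11.8 kb and 42.5 kb from the edge of the desert, lie the forkhead genes Foxc2, which podocytes need, and Foxf1. These and other genes beyond the flanks were named after the values were seen. The strongest of the 12 is the region with 0 in both replicates given above, 128 kb from Foxl1. The last of the 12 before 1700018B08Rik, at 267 kb from Foxl1, was nearly as strong (121397157 to 121397952, 796 bp, 4.16e-80 in replicate 1 and 0 in replicate 2). Another, at 111 kb, had values of 1.69e-14 and 1.32e-39 (705 bp). The first of the 12, at 50.3 kb from Foxl1, had values of 8.15e-06 and 2.38e-14, and the weakest, at 229 kb, 3.65e-05 and 2.81e-05. Strong and weak regions were interspersed along the desert. It held 28 far overlap regions in all, so 16 did not pass.

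The desert of 961 kb between Rps24 and Zmiz1 on chromosome 14 held 10. They included a pair with midpoints 541 bp apart in the middle, at 25015348 to 25015863 and 25015917 to 25016375. The first of the pair had values of 1.43e-13 in replicate 1 and 3.46e-27 in replicate 2, and the second 1.86e-42 and 3.2e-85. Nearest to Zmiz1, at 25378040 to 25378455, the values were 6.09e-13 and 5.21e-39. Of the 10, 4 had an IDR above 0.01, so strong and weak ones were mixed here too.

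The desert of 1453 kb between Dhx35, a putative RNA helicase gene, and Gm826 on chromosome 2 also held 10, none of them among the strongest. The lowest IDR was 1.69e-05, at 159270219 to 159270650, with values of 1.98e-09 and 1.9e-31. The widest was 432 bp.

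Between Serp2 and Lacc1 on chromosome 14, 465 kb held 9, or 24.7 per Mb of far sequence. The strongest was 622 bp wide at 76912624 to 76913245, with values of 2.11e-57 and 1.62e-88. Another, 413 bp wide at 76764300 to 76764712, had 6.35e-36 and 5.27e-72. The other 7 had IDRs from 0.000161 to 0.0466. Tsc22d1, a gene induced by TGF-beta, lies 49.3 kb beyond Serp2.

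Between Cd83, an immune surface protein gene, and Jarid2, a subunit of the Polycomb repressive complex, 928 kb of chromosome 13 held 7, the strongest at 44413233 to 44413612 with values of 5.55e-15 and 1.62e-23. A total of 28 far overlap regions lay there, as many as beside Foxl1. The desert of 1493 kb between Gm44812 and Mctp2 on chromosome 7 held 6. The strongest was the region at 1700011C11Rik whose sequence is printed above (71960614 to 71961243, 9.62e-34 and 2.01e-72), and the next was at 71188121 to 71188405 (3.97e-15 and 6.94e-22). The other 4 had IDRs from 0.000133 to 0.0491. Nr2f2, which encodes the nuclear receptor COUP-TFII, lies 218 kb beyond Gm44812.

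Between Matn1, a cartilage matrilin gene, and Ptpru, a receptor tyrosine phosphatase gene, 813 kb of chromosome 4 held 6, with the strongest at 131380966 to 131381605 (1.4e-15 and 2.41e-31). Tle3, a Groucho-type corepressor gene on chromosome 9, had filled deserts on both sides. The side of 492 kb toward Uaca held 5, the strongest at 61216296 to 61217001 with 6.74e-31 and 1.11e-48. The side of 495 kb toward Rplp1, a ribosomal protein gene, held 6, with IDRs from 7.69e-05 to 0.00899. Between Enc1 and Arhgef28, 646 kb of chromosome 13 held 5, spaced over 529 kb. Behind the strong one given above, the next in strength lay at 97607350 to 97607956 (6.44e-41 and 5.4e-82), and the weakest, at 97839810 to 97840017, had 5.83e-05 and 2.25e-05.

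**Figure D4:**
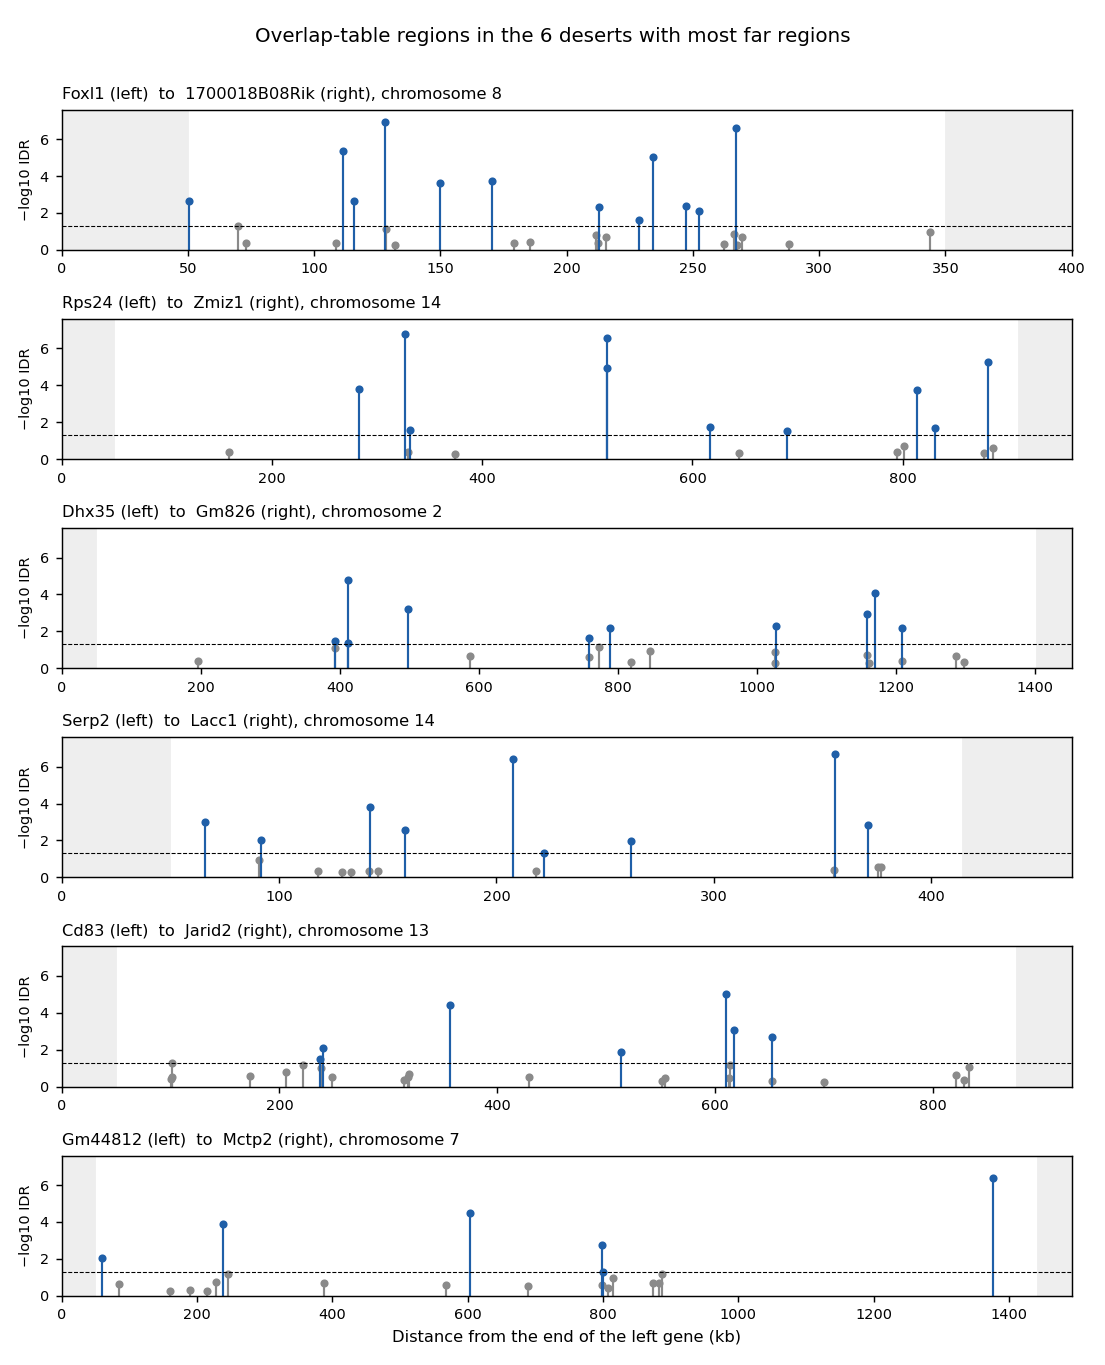
Overlap regions outside the first and last 50 kb (grey bands) of the 6 deserts with most far regions, by distance from the end of the left gene (kb, x axis) and −log10 IDR (y axis). Blue stems pass IDR 0.05 (dashed line) and grey ones do not. In the desert from Foxl1 to 1700018B08Rik 12 of 28 pass, spread over 217 kb.

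Taking all 695 far regions, those of the fullest deserts included, neighbours were farther off than among the others. Another reproducible region lay within 1 kb of 67 (9.64%), within 10 kb of 124 (17.8%) and within 50 kb of 239 (34.4%). For the other reproducible regions the shares were 12.6%, 23.8% and 45.6%. The median distance to the nearest reproducible region was 107 kb for far regions and 64.6 kb for the others. The distance rule fixes part of this difference in advance. A region with its midpoint inside a protein-coding gene cannot lie within 50 kb of a far region. Far sequence also held fewer reproducible regions, 0.829 per Mb against 2.35 per Mb elsewhere. The shares and distances therefore only describe. Regions within 1 kb may share DNA fragments, so they are not independent of each other.

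The genes that flank the filled deserts were counted against all genes that flank a desert. Of 4103 such protein-coding genes, 791 (19.3%) had a far region in an adjoining desert. Nephron progenitor genes did so in 10 of 14 cases (71.4%, 41.9 to 91.6), podocyte genes in 8 of 15 (53.3%, 26.6 to 78.7), genes of the renal vesicle and tubule precursors in 7 of 14 (50%, 23.0 to 77.0) and renal stroma genes in 6 of 12 (50%, 21.1 to 78.9). For these 4 lists the interval lay above 19.3%, but for none of them did this hold in every alternative. At an IDR of 0.01 podocyte and stroma genes had 5 of 15 (33.3%, 11.8 to 61.6) and 4 of 12 (33.3%, 9.92 to 65.1), with 14.0% over all genes inside both intervals. The podocyte interval also took in the share of all genes without replicate 1 (6 of 15, 16.3 to 67.7, against 17.2%), and the stroma interval did without replicate 2 (21.1 to 78.9, against 21.6%). Ureteric bud genes had 3 of 12 (25%, 5.49 to 57.2). The lists were chosen with earlier results of these data known, so these shares describe and support nothing. Some genes are on several lists, and a region between neighbouring list genes counts for both, so the lists are not independent. Their deserts were also longer, with a median of 422 kb for progenitor genes and 608 kb for renal vesicle genes, against 238 kb over all flanking genes. The part of length in these shares was not tested. When non-coding genes also bounded the deserts, 5.49% of all flanking genes had a far region, a share inside the intervals of all 4 lists. Progenitor genes then had 1 of 3 (0.840 to 90.6) and podocyte genes 0 of 6 (0 to 45.9). Renal vesicle genes had 1 of 4 (0.631 to 80.6) and stroma genes 1 of 3 (0.840 to 90.6).

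Among progenitor genes, Pax2, a paired-box transcription factor, had the region with the lowest IDR, 102 kb from the gene with Hif1an on the other side (chromosome 19, 44644179 to 44644669, 491 bp, 8.92e-18 in replicate 1 and 1.1e-29 in replicate 2). Six2, which keeps progenitors renewing, had 2, at 59.9 and 60.6 kb, on the side of Srbd1 (chromosome 17). Their values were 2.74e-12 and 1.21e-21 for the nearer (85747963 to 85748395) and 8.15e-06 and 4.61e-07 for the other (85748657 to 85748961). Gas1, a membrane protein that binds hedgehog ligands, had 3 toward Dapk1. The strongest of these, 155 kb away, had values of 1.32e-18 and 3.44e-17 (chromosome 13, 60332517 to 60332934), which is 1 of the minority in which replicate 1 had the smaller value. Mycn, a proliferation factor, had 2 toward Ddx1 and 1 toward Cyria, with IDRs from 0.00185 to 0.0363. The other 6, Sall1, Gdnf, Itga8, Eya1, Eya4 and Osr1, had a lowest IDR between 0.00278 and 0.0269. Of the 10 genes, 4 also had a reproducible region inside the gene or within 10 kb, namely Pax2, Gas1, Mycn and Osr1, beside 24.3% of all 791 genes next to a filled desert and 14.2% of all genes. For Six2, Sall1, Gdnf, Itga8, Eya1 and Eya4 there was none that near.

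Among podocyte genes, Vegfa, the endothelial growth factor that podocytes secrete, had 1 at 211 kb toward 1600014C23Rik (chromosome 17, 45805693 to 45806411, 719 bp, 7.01e-10 and 2.94e-33). Podxl, which encodes the sialomucin podocalyxin, had 1 at 66.3 kb toward 1700012A03Rik (chromosome 6, 31629986 to 31630444, 459 bp, 1.39e-07 and 1.31e-21). Nebl, an actin-binding protein gene, had 1 at 110 kb toward H2al2a (chromosome 2, 17844653 to 17845012, 4.67e-09 and 2.52e-12). Efnb2, Robo2, Tcf21 and Bmp7 followed, with lowest IDRs from 0.00664 to 0.0296. Tcf21 and Eya4 flank the same desert and share a single region. Nebl, Robo2 and Bmp7 also had a reproducible region inside or within 10 kb, and Vegfa, Podxl, Efnb2 and Tcf21 had none.

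Genes of the renal vesicle, the first epithelial stage of the nephron, had far regions in 7 cases. None of the 7 had a reproducible region inside or within 10 kb, a small count beside the 24.3% of all genes next to a filled desert, from which nothing particular to the list is read. Irx2, an Iroquois homeobox gene on chromosome 13, had 1 at 93.1 kb toward Irx4 (72726835 to 72727657, 823 bp, 9.56e-39 and 6.2e-75), and 2 weaker ones between it and Irx1. Lhx1, a LIM homeobox gene required for nephron formation, had 2, at 134 and 135 kb toward Mrm1 on chromosome 11. The first had values of 4.89e-30 and 3.14e-70 (84659491 to 84659882) and the second 1.61e-05 and 5.74e-11 (84660707 to 84661163). Ccnd1, which encodes cyclin D1, had 1 at 190 kb toward Tpcn2 (chromosome 7, 145130052 to 145130441, 4.74e-17 and 1.4e-33). Wnt4, the signal that turns progenitors into epithelium, had 3 toward Zbtb40 on chromosome 4, at 60.3, 117 and 141 kb in a desert of 229 kb. Of these the middle one had the lowest IDR (137160020 to 137160659, 640 bp, 6.9e-10 and 5.06e-12). Sox9, Emx2 and Irx1 made up the 7.

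In the stroma list, Meis1, a homeobox gene of stromal cells, had 7 far regions in its deserts on chromosome 11, 3 toward Etaa1 and 4 toward Spred2. The strongest was 757 kb from it (19776316 to 19776956, 641 bp, 3.04e-26 and 2.27e-35), in the desert shared with Spred2. That desert was 905 kb long, so this region lay nearer to Spred2. Zeb2, a zinc-finger repressor gene, had 2 in its desert of 3697 kb, at 294 and 3324 kb, the latter nearer to Acvr2a. Fat4, an atypical cadherin gene, had 1 on each side, 187 kb away toward Ankrd50 and 1430 kb away toward Intu. Meis1, Zeb2 and Fat4 also had a reproducible region inside or within 10 kb, and Tcf21 and Aldh1a2 did not. In the ureteric bud list, Dusp6, an inhibitor of ERK signalling, had 2 toward Csl on chromosome 10, the stronger with values of 8.96e-28 and 4.57e-71 (99524507 to 99525454). Grhl2, beside LOC115488529, and Calb1, beside Tmem64, had 1 each.

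Broader families were counted in the same way. Developmental transcription factors, taken by family name, flanked a desert with a far region in 46 of 109 cases (42.2%, 32.8 to 52.0), secreted signals and their receptors in 15 of 47 (31.9%, 19.1 to 47.1) and guidance and adhesion genes in 19 of 71 (26.8%, 16.9 to 38.6), beside the 19.3% of all. For signals and for guidance genes the interval includes 19.3%. From the strongest peaks of replicate 1 alone, without replicate 2, guidance genes had 32 of 71 (45.1%, 33.2 to 57.3) and signals 18 of 47 (38.3%, 24.5 to 53.6), against 21.6% of all, and without replicate 1 guidance genes had 16 of 71 (22.5%, 13.5 to 34.0), against 17.2%. At an IDR of 0.1 guidance genes had 39.4% (28.0 to 51.7) and signals 40.4% (26.4 to 55.7), against 23.7% of all, and at 0.01 guidance genes had 16.9% (9.05 to 27.7), against 14.0%. Olfactory and vomeronasal receptor genes did so in 1 of 98 (1.02%, 0.0258 to 5.55). That gene was Olfr291, with a region 104 kb away toward Zfand6. Only 2 housekeeping genes flank any desert, and neither had 1. Desert length was then split into 100 to 200, 200 to 400, 400 to 800 and over 800 kb. Pairs of a listed transcription factor and an adjoining desert had a far region in 5 of 42, 15 of 40, 18 of 42 and 13 of 33 cases. These shares were 11.9%, 37.5%, 42.9% and 39.4%. Over all flanks the shares were 6.99%, 19.7%, 30.2% and 26.6%, so the list stood higher in each class, though on small counts. For guidance genes the shares were 14.3%, 0%, 19% and 23.1%, above all flanks only in the shortest class.

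Foxl1, Irx2, Irx4 and Lhx1 led the transcription factor list, with the regions already described. Among signals, Fgf9, a ligand that maintains progenitors, had 2 toward 1700129C05Rik, the stronger 404 kb away (chromosome 14, 58516536 to 58517038, 1.4e-33 and 1.82e-48). Spry2, a feedback inhibitor of receptor tyrosine kinases, had 3 toward Ndfip2, the strongest at 159 kb (chromosome 14, 105732202 to 105732820, 1.81e-41 and 6.31e-34). The endothelin receptor gene Ednra had 1 at 118 kb toward Ttc29 (chromosome 8, 77842240 to 77842795, 6.37e-34 and 8.1e-37), and Fstl4 had 2 toward 9530068E07Rik on chromosome 11. Among guidance and adhesion genes, Ephb1, an ephrin receptor gene, had 1 at 59.2 kb toward Ppp2r3a (chromosome 9, 101862636 to 101863183, 1.75e-26 and 4.59e-44). The cadherin genes Cdh11 and Cdh5 share a desert on chromosome 8 with 4, of which 103231116 to 103231402 had values of 4.48e-29 and 4.95e-37. Unc5d, a netrin receptor gene, had 2 toward Dusp26, 1514 and 1812 kb away. Their desert was 1870 kb long, so both lay nearer to Dusp26.

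In deserts with a listed transcription factor on 1 side only, 58 of 95 far regions (61.1%, 50.5 to 70.9) lay nearer to it than to the other flank. These regions lay in 45 deserts, with 12 in the desert beside Foxl1 alone. Regions of a desert are not independent, so the interval is too narrow and shows no lean toward the transcription factor. For far overlap regions above the threshold the share was 55.1% (49.2 to 60.9) of 294, and for far peaks it was 52.0% in replicate 1 and 52.8% in replicate 2. The intervals of the reproducible and the weaker regions overlap widely.

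Genes beside a filled desert had reproducible regions of their own more often than genes beside an empty one. Inside the gene or within 10 kb, 192 of 791 had one (24.3%, 21.3 to 27.4), against 538 of 3312 (16.2%, 15.0 to 17.5) beside empty deserts and 14.2% of all 20661 protein-coding genes. Counted only within 10 kb of an end, so that long genes gain nothing from their bodies, the shares were 16.3% (13.8 to 19.1), 9.51% (8.53 to 10.6) and 10.6%. The order of filled over empty was the same on both counts.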

How the data were processed

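The values are those of 2 deposited peak lists, 1 for each WT1 sample, and a deposited table of regions found in both. Each list gives a position and, per peak, a value of at most 0.0499 that is read here as the authors' p-value or q-value; no source used here says which. The value of the overlap table, also deposited by the authors, is read as an IDR, an error rate like a q-value. The build is mm10, per the submitters' processing notes. For the aligner, the peak caller and the use of IgG reads, no source used here gives an answer. Genes came from RefSeq (GRCm38.p6, no strand), positions are 1-based, and a region was placed by its midpoint. A peak of a replicate belonged to a region it overlapped by at least 1 bp, and the smallest value was taken where there were several. Far sequence was computed exactly between the outermost peaks of each chromosome.

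With 1 group of 2 samples there was no test, and shares have exact Clopper-Pearson 95% intervals. Families were taken by symbol, and 21 symbols that only look like family members were dropped. Named genes are both flanks of the 10 lowest-IDR regions, the 10 fullest deserts, the 3 most distant regions and the threshold regions, and up to 4 members of each list with the lowest IDR; others were chosen after their values were seen, as were the sequence examples. Results for some genes that the rule names are not reported here. Regions and lists were chosen with earlier results of these data known. Alternatives were other IDR and distance thresholds, all RefSeq genes, region edges, other comparison regions and each replicate alone. The placement of regions was tested on simulated data. Python 3.11.15, numpy 2.4.6, pandas 2.3.3, scipy 1.17.1 and matplotlib 3.10.9 were used.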

Additional observations from a re-analysis of the deposited data

How the results depend on the processing

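At an IDR of 0.01, 450 far regions remained, with 13.3% of far and 18.0% of other overlap regions passing, 14.0% of all flanking genes beside a far region, and 82 and 35 deserts with at least 2 and 3. At 0.1, 26.8% and 33.6% passed, and 23.7% of all and 56.0% of transcription factor flanks had a far region. With a distance of 25 kb, 21.9% of reproducible regions were far, at a density ratio of 0.390. With 100 kb, 425 (9.75%) were far, 18.48% of far overlap regions passed, the density ratio was 0.287, and 250, 93 and 34 deserts held at least 1, 2 and 3. Measured from all RefSeq genes, 161 (3.69%) were far. Then 17.3% of far and 26.1% of other overlap regions passed, the density ratio was 0.217, and 130, 20 and 5 deserts held at least 1, 2 and 3. The flank shares were 5.49% of all genes and 21.7% of transcription factors. Far regions were then narrower at the median (difference -23 bp) and weaker in both replicates (differences in −log10 value of -0.43 and -2.61), against 3 bp, 0.31 and -0.80 with protein-coding genes only. The cause was not tested. In replicate 1 the sign also turned against other intergenic regions (-0.10), and in replicate 2 at an IDR of 0.01 (0.05), and the width difference ran from -15 to 16.5 bp elsewhere. Far regions passed less often, and were sparser, than the rest in every alternative run for these results.

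From the strongest peaks of 1 replicate alone, 14.0% to 18.6% lay far, and 17.2% to 21.6% of all flanking genes had one (the flank and desert counts by replicate were added after seeing the data). The progenitor list then had 50% without replicate 1 and 85.7% without replicate 2. Of the peaks of a single replicate, 5.55% to 6.55% far from genes overlapped a reproducible region, against 8.59% to 10.9% elsewhere. No paired analysis was possible because the results come from no test and only 1 group has files. With no counts, depth limits cannot be given.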

Other observations

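No background share was computed for microRNA hairpins, so nothing particular to far regions is read from their count. Hairpins of RefSeq lay within 20 kb of 7 of the 695 far regions. The strongest of these regions lay 12.8 kb from Mir3089, between Cstad and 1700001O22Rik (chromosome 2, 30707991 to 30708751, 2.94e-26 in replicate 1 and 9.56e-80 in replicate 2), and another was 4.10 kb from the same hairpin (2.84e-06 and 1.13e-10). A region between Tmpo and Nedd1 was 7.46 kb from Mir135a-2 (7.41e-15 and 5.56e-18), and one between Jak1 and Ak4 was 10.9 kb from Mir101a (2.75e-06 and 8.28e-08). Near the Notch effector gene Hes1, 5 far regions lay within 40.4 kb of each other, at 51.7 to 92.1 kb from the gene, with Opa1 on the other side. Their IDRs ran from 2.02e-06 to 0.0224. Toward Cpn2 on the other side of Hes1 lay 1 more, 118 kb from Hes1, with a lower IDR of 1.15e-06 (chromosome 16, 30185392 to 30185913, 8.01e-27 and 1.01e-28). These genes were named after their values were seen.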
